A study of Mus musculus with 2 samples.

Results

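The genes described are 10 members of the BCL2 family, 5 that keep cells alive (Bcl2, Bcl2l1, Mcl1, Bcl2a1b and Bcl2a1d) and 5 that promote death (Bcl2l11, Bbc3, Pmaip1, Bax and Bak1). They were listed by name and role, out of the 32285 genes in the files and with earlier results of these data known, and all 10 were present in both libraries. The cells were group 2 innate lymphoid cells (ILC2s), lymphocytes that lack antigen receptors, reside in tissues and secrete type 2 cytokines, sorted from mouse lung as Lineage- CD90.2+ ST2+ Sca-1+ cells after magnetic depletion of other lineages. The study asked how ILC2s differ without PAC1, the MAP kinase phosphatase that Dusp2 encodes. Droplet-based scRNA-Seq was performed on 1 library of WT cells and 1 library of Pac1-/- cells, each pooled over several mice. Pac1-/- mice lack the gene in every cell of the body and were on the C57BL/6J background, so a difference cannot be assigned to the ILC2s themselves. The labels give no age and no treatment of the mice, and no label ties a cell to a mouse. The paper's methods give an age range in weeks for all its animal experiments. Mice of both sexes were used, matched by sex and age. With 1 library per genotype there was no replicate check, genotype and library cannot be told apart, no test between genotypes was possible, and every 95% interval below covers counting error only.

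Proteins of the BCL2 family decide whether the outer membrane of mitochondria is opened, the step that commits a cell to apoptosis. BAX and BAK1 form the pores, the survival proteins hold them in check, and the BH3-only proteins, made in response to stress or loss of growth signals, bind and neutralise the survival proteins or activate the pore formers directly. Lymphocytes depend on cytokine signals for this balance, and much of its control is at the level of protein stability and binding, which RNA does not show.

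Bcl2a1b and Bcl2a1d are copies of 1 ancestral gene on mouse chromosome 9, and the pair is shown next to Bcl2 because these genes differed in opposite directions between the libraries. The sequences are from RefSeq (GRCm38.p6) and end at the base before the RefSeq start of Bcl2 (chr1:106714291-106714540, minus strand) or before the GENCODE start of Bcl2a1b (chr9:89199023-89199208, plus strand) and Bcl2a1d (chr9:88731915-88732100, minus strand). Capitals mark letters found on either strand, which are TGACG for the CRE core, GGAAGT for an ETS motif and, for AP-1, TGANTCA.
Bcl2: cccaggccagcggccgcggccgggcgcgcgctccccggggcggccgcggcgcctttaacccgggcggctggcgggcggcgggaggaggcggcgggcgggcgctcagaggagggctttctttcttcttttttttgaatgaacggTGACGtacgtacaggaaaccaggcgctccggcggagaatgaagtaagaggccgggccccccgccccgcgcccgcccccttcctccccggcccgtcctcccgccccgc
Bcl2a1b: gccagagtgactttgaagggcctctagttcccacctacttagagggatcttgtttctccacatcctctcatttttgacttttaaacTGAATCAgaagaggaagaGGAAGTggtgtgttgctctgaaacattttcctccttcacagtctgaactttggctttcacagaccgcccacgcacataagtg
Bcl2a1d: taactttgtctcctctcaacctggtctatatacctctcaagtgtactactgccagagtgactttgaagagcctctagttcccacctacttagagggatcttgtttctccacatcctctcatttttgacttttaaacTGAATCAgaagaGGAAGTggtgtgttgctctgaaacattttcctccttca
The Bcl2 stretch was rich in G and C, at 74.8% of 250 bases, with 36 CpG. The 250 bases before the RefSeq start of Bcl2a1b and of Bcl2a1d had 44.8% G and C and 4 CpG each. Aligned to each other, the Bcl2a1b and Bcl2a1d bases matched at 198 of 206 columns, with 6 columns of gaps. A TGACG was found in Bcl2 from 107 to 103 bases before the start, and in Bcl2a1b and Bcl2a1d from 66 to 62 and from 22 to 18 bases before it, where the printed stretches, cut at the GENCODE start, do not hold it whole. GGAAGT stood before both Bcl2a1 copies and not before Bcl2, and each of the 2 copies held 1 TGAATCA, which reads as the AP-1 letters on both strands. A start was listed for 9 of the 10 genes, all but Pmaip1, and for 3 of these genes several starts were searched. TGACG was found before 4 of the 9 genes, where 17.8% of all 32851 listed promoters held it, GGAAGT before 4 (19.7% of all), TGANTCA before 2 (6.75%), the NF-kB motif before 3 (1.41%) and the full CRE, TGACGTCA, before 0 (1.55%). TGACG lies within the full CRE, so every promoter with the CRE also counts for TGACG. These matches describe letters and not binding.

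The near-identity of the Bcl2a1 copies limits their counts. The longest Bcl2a1b and Bcl2a1d transcripts matched at 810 of 817 aligned columns. Of the 90-base windows in the last 500 bases, where 3′ libraries read, 66.2% of those of Bcl2a1b and 65.2% of those of Bcl2a1d were also found in another copy or in a related transcript. Reads from such windows may be dropped or given to a relative, so the level of each copy is uncertain. The pair is summed below only as a share of the survival UMIs, and its other values are per copy. The other copies were near 0, with 17 and 21 UMIs of Bcl2a1a and 1 and 3 UMIs of Bcl2a1c in WT and Pac1-/-. Bax also shared windows, with Gm45808, in 41.3% of those of its transcript Bax-202 and 15.3% of those of Bax-203. Its other transcripts shared no window. Bcl2 (chr1:106538178-106714274), Bcl2a1d (chr9:88723285-88731914) and Bak1 (chr17:27019810-27029009) overlap genes on the opposite strand that had 25, 121 and 95 UMIs in WT and 25, 66 and 79 in Pac1-/-, and strand use in counting was not given in the sources used here.

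After barcodes with fewer than 500 genes or over 10% mitochondrial UMIs had been set aside, 8394 of 10866 WT barcodes with 54579034 unique molecular identifiers (UMIs, 1 per captured transcript) and 7087 of 9495 Pac1-/- barcodes with 58338886 UMIs were kept. Median depth was 4186.5 UMIs in WT and 5577 in Pac1-/-, and the median share of mitochondrial UMIs was 2.50% and 3.27%. Both libraries held 29 barcodes in common, 15 of them kept. Dusp2 gave 1419 UMIs in WT and 5 in Pac1-/-, in the direction of the labels. Among barcodes thinned to 1500 UMIs, 90.9% of WT and 89.8% of Pac1-/- barcodes had a UMI of at least 3 of 10 ILC2 markers. Genes of 10 other cell types were also summed. Erythroid genes summed to 76.2 CPM (counts-per-million, the UMIs of a gene relative to all UMIs of the kept barcodes) in WT and 269 in Pac1-/-, mast cell and basophil genes to 13.2 and 28.4, and B cell genes to 7.40 and 14.2. Macrophage genes stood at 2.42 and 7.15 CPM, stromal genes at 7.64 and 16.04, NK cell genes at 1.37 and 2.59, epithelial genes at 54.2 and 79.3, endothelial genes at 42.7 and 40.6 and T cell genes at 134 and 102. The neutrophil markers, of a cell type rich in Bcl2a1, summed to 0.183 and 0.103 CPM, with 3 of 5 at 0 UMIs in WT and 2 of 5 in Pac1-/-, among them S100a8 and Retnlg in both. Leaving out the 57 WT and 153 Pac1-/- barcodes with markers of another cell type kept the same 5 genes past the fold named next. Such barcodes had at least 2 markers and at least 3 UMIs of a list. The T cell and erythroid lists were not used to pick them, here or below.

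In both libraries the RNA for the 5 survival proteins outnumbered that for the 5 death proteins. Mcl1, Bcl2 and Bax were higher in CPM in Pac1-/-, while Bcl2a1b, Bcl2a1d, Bcl2l11 and Pmaip1 were lower. Log2 ratios of Pac1-/- over WT are given relative to the median of the 11440 genes with at least 100 UMIs in both libraries together, which itself stood at 0.19. A gene was counted as past the fold at a relative log2 ratio of at least 0.5 or at most -0.5. All 10 genes had the minimum, and 1 was past the fold toward higher and 4 toward lower levels. Over all genes with the minimum, 10.4% were past the fold toward higher and 15.1% toward lower levels in Pac1-/-, or 25.5% in either direction. The median relative log2 ratio was -0.05 over the 10 genes, -0.22 over the 5 survival genes and 0.13 over the 5 death genes, beside 0 over all genes by construction. Unadjusted for the median gene these medians were 0.14, -0.03 and 0.32. Scaled by total UMIs instead, 21.4% of all genes were past the fold toward higher and 8.99% toward lower levels, Mcl1 joined Bax at 0.54, and Bcl2l11 left the lower group at -0.47.

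**Figure D1:**
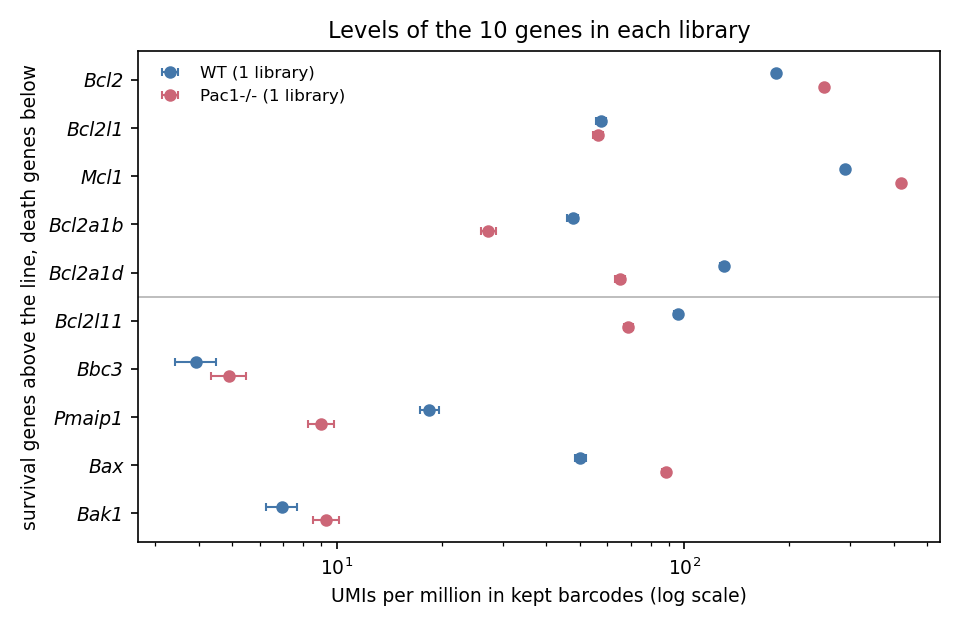
Levels in CPM (log axis) of the 10 genes in the kept barcodes of the WT and the Pac1-/- library, with exact 95% Poisson intervals that cover counting error only. Mcl1 was the highest in both libraries, at 290 CPM in WT and 421 CPM in Pac1-/-, and Bbc3 the lowest, at 3.92 and 4.89 CPM.

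Mcl1, whose short-lived protein restrains BAK1 and is needed by most lymphocytes, was the most abundant of the 10. It stood at 290 CPM in WT (285 to 294) and 421 CPM in Pac1-/- (416 to 427), a relative log2 ratio of 0.35 (0.32 to 0.38). After thinning, 33.3% of WT and 43.2% of Pac1-/- barcodes had an Mcl1 UMI, against 65.2% and 80.1% before it. Bcl2, the founding survival gene and a target of IL-7 signaling in lymphocytes, stood at 184 CPM in WT (180 to 188) and 253 CPM in Pac1-/- (248 to 257), a relative log2 ratio of 0.27 (0.23 to 0.31). Both genes were thus higher in Pac1-/- than the median gene, but under the fold. Bcl2l1, which encodes BCL-XL, stood at 57.5 CPM in WT (55.6 to 59.6) and 56.3 CPM in Pac1-/- (54.4 to 58.3), below the median gene by a relative log2 ratio of -0.22 (-0.29 to -0.15).

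The Bcl2a1 copies, which encode the survival protein A1 and are induced on activation of immune cells, were the survival genes with the largest differences. Bcl2a1d stood at 130 CPM in WT (127 to 133) and 65.4 CPM in Pac1-/- (63.3 to 67.5), a relative log2 ratio of -1.18 (-1.24 to -1.12). For Bcl2a1b the values were 47.6 CPM (45.8 to 49.5) and 27.2 CPM (25.9 to 28.6), a relative log2 ratio of -0.99 (-1.09 to -0.90). The pair made up 25.1% of all survival UMIs in WT and 11.3% in Pac1-/-. Bcl2a1d held 2.73 UMIs for each UMI of Bcl2a1b in WT and 2.40 in Pac1-/-. The share of thinned barcodes with a Bcl2a1d UMI was 14.8% in WT and 7.32% in Pac1-/-.

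Among the BH3-only genes, Bcl2l11, which encodes BIM, the death protein that acts when cytokines are withdrawn, stood at 95.8 CPM in WT (93.3 to 98.5) and 69.0 CPM in Pac1-/- (66.9 to 71.2), a relative log2 ratio of -0.66 (-0.72 to -0.60). Pmaip1, which encodes NOXA, a partner of MCL1 and A1, stood at 18.5 CPM in WT (17.3 to 19.6) and 9.02 CPM in Pac1-/- (8.26 to 9.82), a relative log2 ratio of -1.22 (-1.38 to -1.07). Bbc3, which encodes PUMA, a p53 target, was the scarcest with 214 and 285 UMIs, or 3.92 and 4.89 CPM, and its relative log2 ratio of 0.13 (-0.13 to 0.39) was within counting error of the median gene. Of the BH3-only genes among the 10, the 2 abundant ones were therefore the ones that were lower in Pac1-/-.

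Of the pore formers, Bax stood at 50.1 CPM in WT (48.3 to 52.1) and 88.7 CPM in Pac1-/- (86.3 to 91.1), a relative log2 ratio of 0.63 (0.57 to 0.70), and was the only one of the 10 past the fold toward higher levels. After thinning, 7.45% of WT barcodes and 12.0% of those of Pac1-/- had a UMI of it. Bak1 was scarce, at 6.94 CPM in WT (6.26 to 7.68) and 9.31 CPM in Pac1-/- (8.54 to 10.1), a relative log2 ratio of 0.23 (0.04 to 0.43). In level, the order from Mcl1 through Bcl2 held in both libraries, followed in WT by Bcl2a1d, Bcl2l11, Bcl2l1, Bax and Bcl2a1b and in Pac1-/- by Bax, Bcl2l11, Bcl2a1d, Bcl2l1 and Bcl2a1b. Neighbours in this order had separate counting intervals except Bax and Bcl2a1b in WT and Bcl2l11 and Bcl2a1d in Pac1-/-, whose Poisson intervals overlapped. In the plot of levels, Bax climbs from the sixth to the third place while Bcl2a1d drops from the third to the fifth.

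The balance of the 2 sides was then computed from UMIs alone, which needs no scaling by depth. For each death UMI there were 4.04 survival UMIs in WT (38690 over 9568) and 4.55 in Pac1-/- (48007 over 10553), a log2 difference of 0.17 (0.13 to 0.21). The small difference in the total covered larger and opposite ones within the death side. Survival UMIs per BH3-only UMI were 6.0 in WT and 9.92 in Pac1-/-, a log2 difference of 0.73 (0.67 to 0.78), and survival UMIs per pore-former UMI were 12.4 and 8.40, a log2 difference of -0.56 (-0.63 to -0.50). The BH3-only genes listed made up 13.4% of the UMIs of the 10 genes in WT and 8.26% in Pac1-/-. The pore formers made up 6.46% and 9.76%. Bad and Bik, BH3-only genes outside the 10, were not in these sums and ratios and were higher in CPM in Pac1-/-. The survival gene Bcl2l2, lower in Pac1-/-, was not in them either. Mcl1 held 40.9% of survival UMIs in WT and 51.2% in Pac1-/-. The direction of the total rested on this gene, since without Mcl1 the log2 difference was -0.11, and without the Bcl2a1 pair it was 0.41.

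**Figure D2:**
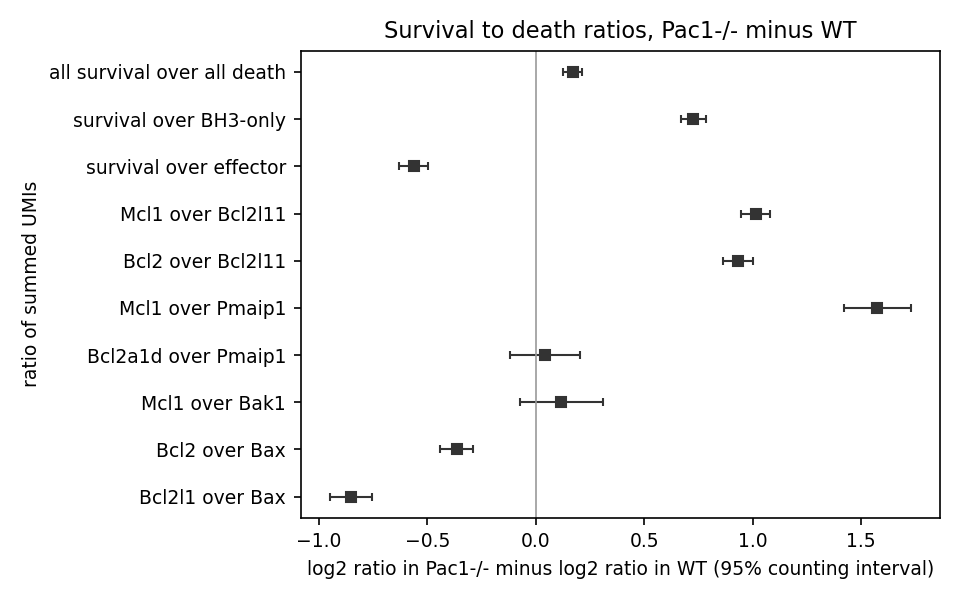
Log2 difference between Pac1-/- and WT (x axis) in the ratio of summed UMIs of survival genes to death genes, with 95% counting intervals. The 10 genes together, named parts of them and named pairs are shown. The ratio to the listed BH3-only genes was higher in Pac1-/- (0.73) and the ratio to pore formers lower (-0.56). The 10 genes together lay between them at 0.17.

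Pairs of proteins that are known to bind each other were compared in the same way. Mcl1 over Bcl2l11 was 3.02 in WT and 6.11 in Pac1-/-, a log2 difference of 1.01 (0.95 to 1.08). Bcl2 over Bcl2l11 was 1.92 and 3.66, a log2 difference of 0.93 (0.86 to 1.0). Mcl1 over Pmaip1 was 15.7 and 46.7, the largest of the pairs, with a log2 difference of 1.57 (1.42 to 1.73). Bcl2a1d over Pmaip1, both lower in Pac1-/-, kept nearly the same ratio at 7.05 and 7.25, a log2 difference of 0.04 (-0.12 to 0.20). Bcl2 over Bax was 3.67 in WT and 2.85 in Pac1-/- (-0.36, from -0.44 to -0.29), and Bcl2l1 over Bax 1.15 and 0.635 (-0.85, from -0.95 to -0.76). Mcl1 over Bak1 was 41.7 and 45.3, with a log2 difference of 0.12 whose interval of -0.07 to 0.31 includes 0. In the plot of ratios, pairs with Bcl2l11 or Mcl1 over Pmaip1 lie to the right and pairs with Bax to the left.

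Per barcode, the median number of the 10 genes with a UMI was 2 in WT and 3 in Pac1-/-, at the greater depth of Pac1-/-. Barcodes with no UMI of a survival gene made up 13.2% of the WT and 6.93% of the Pac1-/- library, and those with none of a death gene 49.7% and 40.4%. Mcl1 or Bcl2 gave a UMI in 79.5% and 90.9%. Barcodes with a death UMI and no survival UMI were few, 353 in WT (4.21%) and 145 in Pac1-/- (2.05%). These shares move with depth and were not thinned.

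To see whether the family differs between cells in other states, barcodes were split by a UMI of Il5, the ILC2 cytokine that feeds eosinophils, of Il2, a growth factor of lymphocytes, or of Txnip, an inhibitor of thioredoxin and glucose uptake that is high in resting lymphocytes. Each barcode was first reduced at random to 1500 UMIs, barcodes below that depth (760 in WT, 523 in Pac1-/-) were dropped, and values are means over 20 such thinnings. Of 7634 WT and 6564 Pac1-/- barcodes, 32.8% and 19.5% had an Il5 UMI (53.1% and 39.5% unthinned), with Il2 in 7.34% and 7.70% (19.9% and 25.5% unthinned) and Txnip in 22.7% and 34.9% (47.1% and 65.6% unthinned). Free RNA in droplets can give such UMIs too. In the few barcodes with B cell markers, 10 in WT and 25 in Pac1-/-, the thinned shares were 24% and 7.2% for Il5, 1.5% and 1.8% for Il2 and 20.5% and 37.4% for Txnip. B cells express Txnip but should lack Il5 and make little Il2. The exact binomial intervals of the B cell shares were wide, from 4.0% to 59.6% for Il5 in WT and from 0.742% to 24.9% in Pac1-/-, and each held the share of all barcodes, so a difference from background was not detectable with so few barcodes for any of the 3 genes. A barcode without a UMI may belong to a cell that expresses the gene. Of the 10 genes, 8 in WT and 7 in Pac1-/- had the minimum of 100 UMIs after thinning. Bbc3 and Bak1 were below it in both libraries, and Pmaip1 in Pac1-/-.

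**Figure D3:**
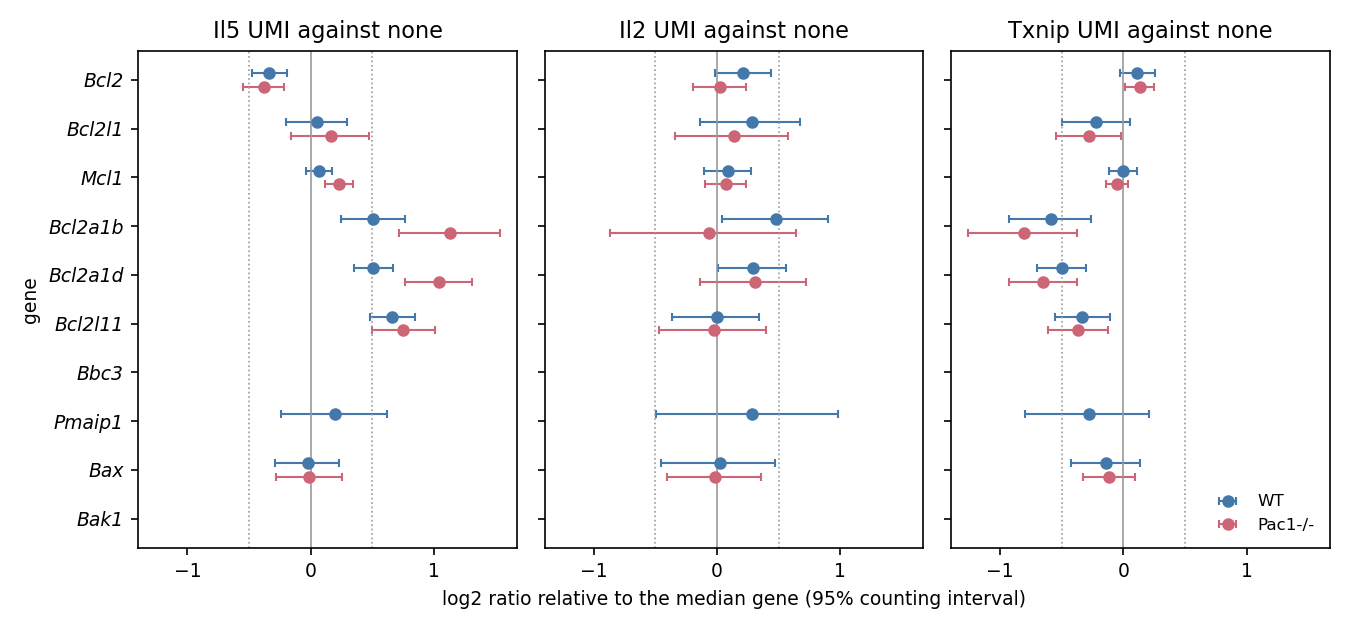
Log2 ratio of barcodes with against without a UMI of Il5, Il2 or Txnip, relative to the median gene, for the WT and the Pac1-/- library, with 95% counting intervals and dotted lines at the fold of 0.5. Genes under the minimum are not drawn, and Bcl2a1b, Bcl2a1d and Bcl2l11 lie to the right of 0 for Il5 and to the left for Txnip in both libraries.

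In barcodes with an Il5 UMI, Bcl2l11 and both Bcl2a1 genes were higher and Bcl2 lower, in both libraries. Of the genes with the minimum, 3 of 8 in WT and 3 of 7 in Pac1-/- were past the fold toward higher levels, where 7.31% and 8.92% of all genes were, and 0 were past it toward lower levels (2.01% and 2.44% of all genes). Bcl2l11 stood at 111 CPM with and 79.2 CPM without an Il5 UMI in WT and at 90.04 and 61.6 CPM in Pac1-/-, relative log2 ratios of 0.66 (0.48 to 0.84) and 0.75 (0.49 to 1.0). Bcl2a1d stood at 142 and 112 CPM in WT and at 86.6 and 48.6 CPM in Pac1-/-, relative log2 ratios of 0.51 (0.35 to 0.67) and 1.04 (0.77 to 1.30). For Bcl2a1b the relative log2 ratios were 0.51 (0.25 to 0.77) in WT and 1.13 (0.71 to 1.53) in Pac1-/-. Bcl2 stood at 146 CPM with and 208 CPM without an Il5 UMI in WT and at 186 and 278 CPM in Pac1-/-, relative log2 ratios of -0.34 (-0.48 to -0.20) and -0.38 (-0.55 to -0.22). Mcl1, Bcl2l1 and Bax differed little, with relative log2 ratios between -0.03 and 0.23. Whether the splits differ between the libraries was not tested.

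The WT values of the Bcl2a1 pair lay at the edge of the fold. Thinned to 1000 UMIs they were 0.47 for Bcl2a1b and 0.48 for Bcl2a1d, and without thinning Bcl2l11 in Pac1-/- was 0.49. When at least 2 Il5 UMIs were required, Bcl2 was past the fold too, at -0.53 in WT and -0.67 in Pac1-/-, and Bcl2l11 was at 0.92 and 1.08. Without thinning the difference of Bcl2 was smaller, at -0.23 in WT and -0.17 in Pac1-/-. Barcodes with an Il5 UMI had been deeper before thinning, with medians of 5576 against 4143 UMIs in WT and 7244 against 5607 in Pac1-/-, and had a median mitochondrial share of 2.49% against 2.57% and 3.24% against 3.34%. Their dissociation genes summed to 10232 against 11839 CPM in WT and 12569 against 14251 CPM in Pac1-/-. The part of depth beyond the thinning, and that of the dissociation genes, was not tested. ILC2 markers summed to 8088 CPM with and 5834 CPM without an Il5 UMI in WT and to 8099 and 5625 CPM in Pac1-/-. Erythroid markers stood at 45.1 and 61.4 CPM in WT and 78.1 and 325 CPM in Pac1-/-, stromal markers at 1.53 and 6.83 and at 2.35 and 47.0 CPM, and epithelial markers at 39.3 and 123 and at 126 and 110 CPM. Macrophage markers were at 1.28 and 3.20 and at 1.38 and 18.9 CPM, and B cell markers at 5.62 and 11.5 and at 9.67 and 24.7 CPM. Endothelial markers ran the other way, at 57.6 and 32.1 and at 58.4 and 38.2 CPM. Without the barcodes with markers of another cell type, Bcl2l11 was at 0.67 in WT and 0.76 in Pac1-/-, Bcl2a1d at 0.51 and 1.05, Bcl2a1b at 0.51 and 1.19 and Bcl2 at -0.34 and -0.40.

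The balance was lower in barcodes with an Il5 UMI. Its log2 value was 1.84 with and 2.14 without an Il5 UMI in WT, a difference of -0.30 (-0.45 to -0.15), and 2.06 and 2.26 in Pac1-/-, a difference of -0.20 (-0.38 to -0.01). Over the 20 thinnings the difference ran from -0.42 to -0.15 in WT, and from -0.45 to 0.02 in Pac1-/-, where it was below 0 in 19. For Il2 the differences were 0.18 (-0.09 to 0.45) and 0.10 (-0.18 to 0.39), and for Txnip 0.14 (-0.04 to 0.31) and 0.13 (-0.03 to 0.29). Each of these intervals included 0, so no difference in balance was detectable at this depth for these 2 splits. Over the 20 thinnings, which share barcodes, the Txnip difference was below 0 in 0 in WT and in 2 in Pac1-/-. The Il2 difference was below 0 in 2 and in 5.

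By Il2 status, 0 of 8 genes in WT and 0 of 7 in Pac1-/- were past the fold in either direction, where 0.629% and 0.299% of all genes were toward higher and 1.5% and 0.544% toward lower levels. The largest value was that of Bcl2a1b in WT, at 61.6 CPM with and 44.5 CPM without an Il2 UMI (0.48, from 0.04 to 0.90), and in Pac1-/- it stood at 22.6 and 24.0 CPM (-0.07, from -0.87 to 0.64). Bcl2a1d was at 0.29 (0.01 to 0.56) and 0.31 (-0.14 to 0.72). With at least 2 Il2 UMIs required, Bcl2a1b was at 1.02 in WT and 0.41 in Pac1-/-, and Bcl2a1d at 0.70 and 0.57. Barcodes with an Il2 UMI were few. Their dissociation genes summed to 12665 against 11205 CPM in WT and 16612 against 13699 CPM in Pac1-/-. Epithelial markers stood at 29.0 against 101 CPM in WT and 39.9 against 119 CPM in Pac1-/-, stromal markers at 0.655 against 5.45 and 1.91 against 41.3 CPM, and erythroid markers at 56.6 against 56.0 and 164 against 287 CPM. Macrophage markers were at 1.43 against 2.66 and 2.57 against 16.5 CPM, and B cell markers at 2.50 against 10.1 and 5.21 against 23.1 CPM. Without the barcodes with markers of another cell type, Bcl2a1b was at 0.49 in WT and -0.06 in Pac1-/-, and Bcl2a1d at 0.29 and 0.32. The part of the marker and dissociation genes in the values by Il2 was not tested.

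In barcodes with a Txnip UMI the Bcl2a1 genes were lower. In WT 1 of 8 genes, Bcl2a1b, and in Pac1-/- 2 of 7, Bcl2a1b and Bcl2a1d, were past the fold toward lower levels, where 1.75% and 2.63% of all genes were, and 0 toward higher levels (0.656% and 0.272% of all genes). Bcl2a1b stood at 35.5 CPM with and 48.8 CPM without a Txnip UMI in WT and at 17.3 and 27.5 CPM in Pac1-/-, relative log2 ratios of -0.59 (-0.93 to -0.26) and -0.81 (-1.26 to -0.38). Bcl2a1d stood at 99.4 and 128 CPM in WT, just inside the fold at -0.50 (-0.70 to -0.30), and at 44.0 and 62.5 CPM in Pac1-/-, at -0.65 (-0.93 to -0.38). Bcl2l11 was lower by -0.33 (-0.56 to -0.11) and -0.37 (-0.61 to -0.13), and Bcl2 higher by 0.11 (-0.03 to 0.25) and 0.13 (0.02 to 0.25). Without thinning the Bcl2a1 values were -0.39 and -0.19 in WT and -0.49 and -0.33 in Pac1-/-, all inside the fold, and with at least 2 Txnip UMIs required they were -0.80 and -0.86 in WT and -1.35 and -0.85 in Pac1-/-, all past it. Barcodes with a Txnip UMI had ILC2 markers at 5927 against 6763 CPM in WT and 5614 against 6372 CPM in Pac1-/-, and epithelial markers at 273 against 43.5 and 55.2 against 144 CPM. In Pac1-/- their erythroid markers stood at 173 against 333 CPM, stromal markers at 9.2 against 53.9 CPM and macrophage markers at 2.75 against 22.3 CPM, and in WT these stood at 42.0 against 60.2, 4.97 against 5.13 and 2.30 against 2.65 CPM. The dissociation genes summed to 11848 against 11154 CPM in WT and 14676 against 13519 CPM in Pac1-/-, and their part was not tested. Without the barcodes with markers of another cell type Bcl2a1b was at -0.60 and -0.78. In the plot by status, the points of Bcl2, the Bcl2a1 pair and Bcl2l11 lie on opposite sides of 0 for Il5 and Txnip, while Bax lies below 0 in both.

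Because fewer Pac1-/- barcodes had an Il5 UMI and more had a Txnip UMI, the ratio of Pac1-/- over WT was recomputed within each side of the 3 splits and in barcodes with none of the 3 UMIs, 7 overlapping groups in all. Bcl2, Mcl1, Bax, Bak1 and Bbc3 were above the median gene in 7 of 7 groups, and Bcl2l1, Bcl2a1b, Bcl2a1d, Bcl2l11 and Pmaip1 below it in 7 of 7. Bax ranged from 0.53 to 0.60, Mcl1 from 0.33 to 0.51 and Bcl2 from 0.22 to 0.32. Bcl2l11 ranged from -0.59 to -0.41, beside -0.60 in all thinned barcodes. Wider ranges were seen for Bcl2a1d (-1.36 to -0.81), Bcl2a1b (-1.52 to -0.56) and Pmaip1 (-1.61 to -0.90), each nearest to 0 in barcodes with an Il5 UMI. In barcodes without one they stood at -1.36, -1.21 and -1.55, and the difference between these groups was not tested. Bbc3 ranged from 0.0042 to 0.38 and Bak1 from 0.25 to 0.57, on few UMIs, with intervals that included 0 in 7 of 7 groups. The intervals of Bcl2l1 included 0 in 5 of the 7 groups and those of Bcl2 and Bcl2l11 in 1 each. The difference in balance between Pac1-/- and WT was above 0 in 7 of 7 groups, but its interval included 0 in 4 of them. It was 0.22 (0.02 to 0.43) with and 0.12 (-0.0028 to 0.24) without an Il5 UMI, 0.11 (-0.26 to 0.49) and 0.19 (0.08 to 0.29) by Il2, 0.16 (-0.04 to 0.36) and 0.16 (0.04 to 0.29) by Txnip, and 0.11 (-0.05 to 0.26) in barcodes with none of the 3 UMIs.

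**Figure D4:**
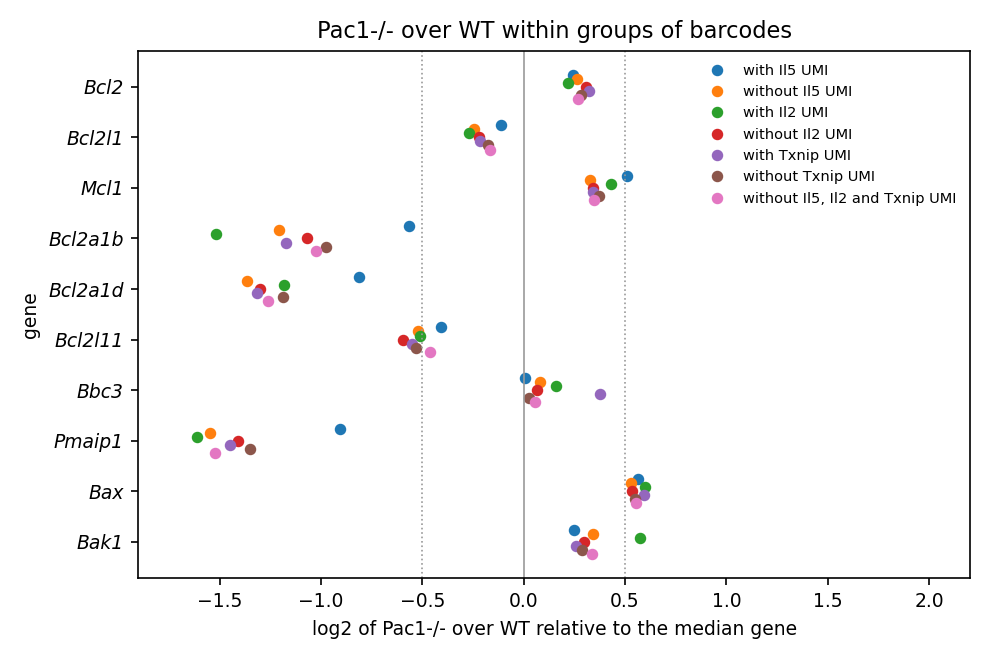
Log2 ratio of Pac1-/- over WT relative to the median gene (x axis) for each gene within 7 overlapping groups of thinned barcodes, with dotted lines at the fold of 0.5. No gene changes side between groups, and the points of the Bcl2a1 pair and Pmaip1 nearest to 0 are those of barcodes with an Il5 UMI.

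The levels also varied with the depth of a barcode and with its mitochondrial share, with levels given as CPM of nonmitochondrial UMIs. From the lowest to the highest quartile of UMIs per barcode, Bcl2 went from 226 to 182 in WT and from 295 to 259 in Pac1-/-, and Bcl2l11 from 77.0 to 104 and from 58.6 to 72.7. Survival UMIs per death UMI were 4.70 in the lowest and 3.99 in the highest quartile in WT, and 5.16 and 4.49 in Pac1-/-. Within each quartile Bcl2a1d was lower and Bax higher in Pac1-/-, with Bcl2a1d at 123 against 54.6 and Bax at 53.7 against 80.4 in the lowest quartile. Quartiles were cut within each library and do not match in depth. Medians were 2246 UMIs in WT and 3116 in Pac1-/- in the lowest, and 12129 and 15076 in the highest. In barcodes with over 4% to 10% mitochondrial UMIs, Bcl2 stood at 251 in WT and 285 in Pac1-/-, against 168 and 225 in those with up to 2%. Bcl2l11 ran the other way, at 79.7 and 62.7 against 114 and 82.0. The Pac1-/- barcodes with up to 2% were 634 shallow ones, with a median of 1278 UMIs. In WT the 421 barcodes with over 4% were the shallower ones, with a median of 2569 UMIs against 3550 in those with up to 2%. The part of depth in the values by mitochondrial share was not tested. These splits were made after the data were seen.

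**Figure D5:**
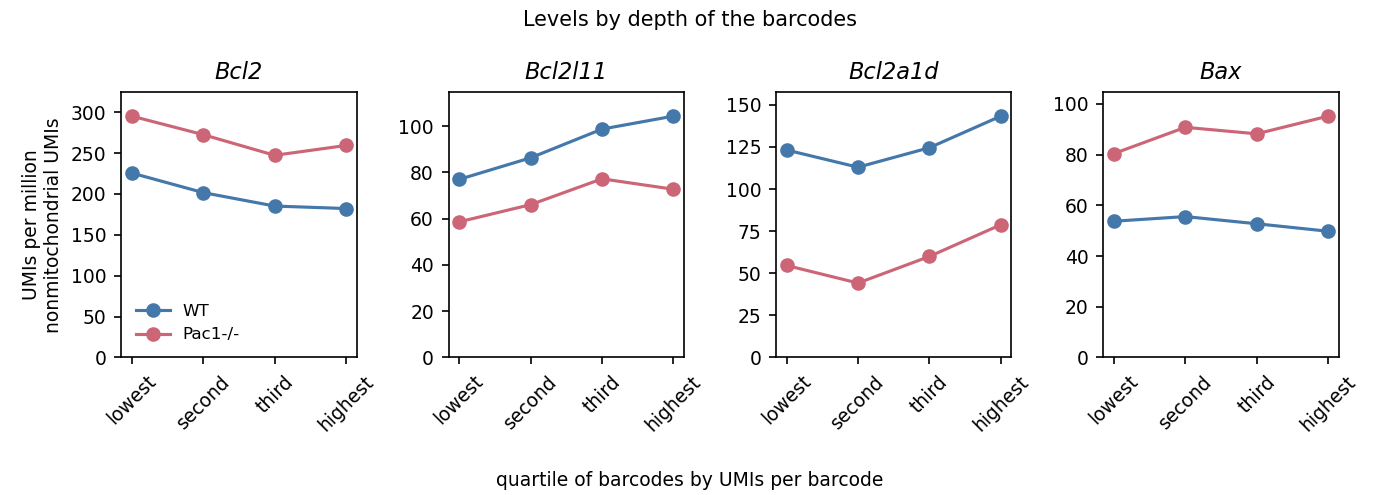
Levels in CPM of nonmitochondrial UMIs for 4 of the genes (y axis) in quartiles of barcodes by UMIs per barcode (x axis). Quartiles were cut within the WT and within the Pac1-/- library. Bcl2 is higher and Bcl2l11 lower in the lowest quartile than in the highest in both libraries, and in every quartile the libraries keep the same order.

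Barcodes over the mitochondrial limit, which the filter had set aside, had more Bcl2, and the lower level of Bcl2l11 was not seen in them. They numbered 69 in WT and 298 in Pac1-/- with at least 500 genes and were shallow, with medians of 1180 and 1241.5 UMIs, and the part of depth was not tested. Bcl2 stood at 459 CPM of nonmitochondrial UMIs in WT and 503 in Pac1-/-, log2 ratios over the kept barcodes of 1.28 (0.82 to 1.70) and 0.94 (0.76 to 1.12). The same ratios were 0.31 (-0.64 to 1.12) and 0.45 (0.0088 to 0.86) for Bcl2l11, and 0.59 (0.13 to 1.02) and 0.20 (0.01 to 0.38) for Mcl1. Bax had 0 UMIs there in WT against 51.5 CPM in kept barcodes, with an upper limit of -0.45 for the log2 ratio. In Pac1-/- it stood at 59.1 against 91.9 CPM (-0.64, from -1.22 to -0.11). The log2 balance of these barcodes was above that of the kept ones by 0.62 (-0.11 to 1.36) in WT and 0.59 (0.26 to 0.92) in Pac1-/-. The 2403 WT and 2110 Pac1-/- barcodes under 500 genes had a balance that differed from the kept ones by 0.20 (-0.01 to 0.40) and -0.03 (-0.24 to 0.18) on the log2 scale.

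Other genes of cell death and survival were read from 6 lists, with values in CPM and the background shares of 10.4% and 15.1% as before. The medians of the lists are relative to the median gene, and scaling by total UMIs would raise each by 0.19, which turns those of the further BCL2 relatives and of the cytokine genes from below to above 0. Of 9 further BCL2 relatives with the minimum, 2 were past the fold toward higher and 2 toward lower levels in Pac1-/-, with a list median of -0.11 (3 and 2 with total-UMI scaling). Bad, a BH3-only gene, stood at 14.1 in WT and 25.5 in Pac1-/- (0.67), and Bik, another, at 5.39 and 9.02 (0.55), while Bcl2l15 stood at 11.3 and 5.02 (-1.36) and the survival gene Bcl2l2 at 2.89 and 1.99 (-0.73). Among 17 caspase and IAP genes, which act after the pore has formed or block that step, 7 were higher and 3 lower by the same fold, with a median of 0.31 (8 and 2 with total-UMI scaling). Apaf1, the scaffold of the apoptosome, stood at 101 and 65.3 (-0.82), Aifm1, a mitochondrial flavoprotein, at 17.96 and 12.6 (-0.70), Birc3, an inhibitor of apoptosis, at 186 and 133 (-0.67), and Diablo, which antagonises such inhibitors, at 17.7 and 30.4 (0.59). Of 11 death receptor genes 2 were higher and 4 lower, with a median of 0.11, and with total-UMI scaling 2 were higher and 0 lower. Tradd, an adaptor of the TNF receptor, stood at 5.50 and 13.7 (1.13), Tnfrsf1a, that receptor, at 0.824 and 1.63 (0.79), Fas, another death receptor, at 9.42 and 7.10 (-0.60), and Casp8, the caspase these receptors activate, at 99.2 and 73.3 (-0.62).

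Of 15 genes of the cytokine signals that sustain lymphocytes, 9 were within the fold, 0 were past it toward higher and 6 toward lower levels in Pac1-/-, or 4 with total-UMI scaling, where Il2ra (-0.497) and Foxo1 (-0.313) were within it. Kit, a growth factor receptor, stood at 428 and 209 CPM (-1.22), Il2rb and Il2rg, subunits of cytokine receptors, at 188 and 104 (-1.05) and at 794 and 516 (-0.81), and Pim2, a survival kinase, at 17.6 and 11.7 (-0.78). The median relative log2 ratio of the list was -0.12. Il7r, the receptor chain for IL-7, was above the median gene, at 812 in WT and 1081 in Pac1-/- (0.22). The p53 gene Trp53 and its targets made up a list of 10. Of these, 0 were past the fold toward higher and 1, the stress gene Sesn2, toward lower levels (-0.69), with a median of 0.07 (2 and 1 with total-UMI scaling). Among 8 genes induced by tissue dissociation, 1 was higher, Hspa1a, at 503 and 1000 CPM (0.80), and 2 were lower, Atf3, at 880 and 636 (-0.66), and Egr1, at 219 and 173 (-0.53), with a median of 0.12. With total-UMI scaling 3 were higher, Hspa1a, Hspa1b (0.66) and Dusp1 (0.52), and 0 lower. The summed dissociation genes stood at 11771 CPM in WT and 14460 CPM in Pac1-/-, and their part in the levels of the BCL2 family was not tested.

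Genes with the most similar pattern were sought over 14 groups of barcodes made by library and by Il5, Il2 and Txnip status, among 5156 genes, as Pearson's r of log2(CPM + 5). The groups share libraries and barcodes were assigned by 3 genes, so r is a description. Nearest to Bcl2 was Pik3ip1, an inhibitor of PI3 kinase (0.98), nearest to Mcl1 was Clic1 (0.97), and nearest to Bax was Tmem14c (0.99). Bcl2a1d was nearest to Cd44, an adhesion receptor of activated lymphocytes (0.98), and Bcl2a1b to Dnajb9, a chaperone of the endoplasmic reticulum (0.95). The next genes were the same for both copies, Slc38a1, an amino acid transporter, and Ube2j1. Bcl2l11 was nearest to Ythdc1 (0.97), and Bcl2l1, with the weakest match, to Map3k8 (0.82).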

How the data were processed

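The authors aligned reads to mm10 with Cell Ranger (6.1.1 in the submitters' processing notes, 4.0.0 in the file header; the annotation release is not given in the sources used here) and deposited raw UMI counts per gene and barcode for 1 WT and 1 Pac1-/- library, with no normalization. No deposited column names a cell type, and the study retained fewer cells per library after its own quality control, whose thresholds are not given in the sources used here, than the filter below. The members and gene lists were chosen with earlier results of these data known.

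Barcodes with under 500 genes or over 10% mitochondrial UMIs were set aside, and counts were summed over the rest and divided by the totals of 54579034 and 58338886 UMIs to give CPM. Computation used Python 3.11.15, numpy 2.4.6, scipy 1.17.1, pandas 2.3.3 and matplotlib 3.10.9. Poisson intervals (exact) were computed for CPM, conditional binomial ones (exact) for ratios, taking the median gene as fixed, Clopper-Pearson ones for shares and Woolf ones for differences of balances, all at 95% and covering counting error only. No p-value was computed from cells. A 3′ UMI is counted per transcript and not per base, so levels of different genes were compared as counted. No doublet caller was run. Barcodes with over 2 times the median UMIs, 21.5% of WT and 19.4% of Pac1-/- barcodes, were left out as an alternative. Shares and status splits used barcodes thinned at random to 1500 UMIs (seed 1 onward). The mean over 20 thinnings was adopted after a first thinning had been seen to depend on its random draw, and intervals use mean counts per thinning. Named genes were the 10 members, up to 4 per further list with the largest relative log2 ratio among those with 100 UMIs, and up to 3 nearest genes per member with 500 thinned UMIs, among genes of at least 20 CPM and groups of at least 50 barcodes. Il7r was added after its value was seen. Motifs were searched on both strands of the 250 bases before each RefSeq start, leaving out chromosome 18 for the 10 genes. Gene positions and transcripts are from GENCODE for GRCm38. Ratios, calls and intervals were tested on simulated data. The alternatives changed the gene minimum, the mitochondrial limit, high-UMI barcodes, barcodes with other markers, weighting, scaling, the thinning depth, the UMIs that define a status and the members summed.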

Additional observations from a re-analysis of the deposited data

How the results depend on the processing

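With 1 pooled library per genotype and differing depth, no setting replaces a replicate, and the intervals leave out differences between mice, sorts and libraries. No paired analysis was possible because each genotype had 1 library, which also left none to leave out. Of the 10 genes, 5 were past the fold under each of the 9 alternatives, although scaling by total UMIs put Mcl1 in the place of Bcl2l11. It also raised the share of higher genes among all genes past the fold from 40.8% to 70.4%. No relative log2 ratio of a gene changed sign between libraries under these alternatives, and 69 of 90 such values stayed within the counting interval of the value reported. The log2 difference in balance between libraries ran from 0.17 to 0.19 under changes of filter, thinning and weighting, became -0.11 without Mcl1 and was 0.41 without Bcl2a1b and Bcl2a1d. By Il5 status, the balance difference was -0.47 in WT when at least 2 UMIs defined a status and -0.45 in Pac1-/- in the first thinning alone, an alternative chosen after the data were seen. The other 46 of 48 values of balance by status stayed within the counting interval of the value reported, and so did 402 of 420 values of single genes by status. Without thinning, the balance difference by Il5 status was smaller, at -0.22 in WT and -0.12 in Pac1-/-. Keeping barcodes with at least 3 ILC2 markers, also chosen after the data were seen, gave a balance difference of 0.17 between libraries. The cause of these shifts was not tested. Depth limited the scarce genes, with a UMI of Bbc3, Bak1 and Pmaip1 in 0.603%, 0.977% and 2.50% of thinned WT and 0.723%, 1.38% and 0.979% of thinned Pac1-/- barcodes.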
